A study of Mus musculus with 24 samples.

Results

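Heart ventricle of FVB mice was compared between 1 year of age, in the group whose titles carry an m after the animal number, and 5 months of age, in males. Age and title alone chose the arrays, and 6 of the 24 arrays of the series entered the comparison, 3 at each age. FVB is an inbred laboratory strain, and the labels name no transgene, deletion or treatment in any adult group. The labels call the 5-month animals male; for the older arrays only the letter in the title bears on sex, and they are called the m group here. Total RNA of ventricle was hybridised in every case. The title of each adult array carries 1 animal number, different on every array, whereas embryonic and neonatal titles list several numbers. No label states in words that an adult array holds 1 animal and not a pool. The p-values rest on variation among arrays of a group, and its animal and technical parts cannot be separated here. Of 12654 probe sets, 2611 read 0 on all 24 arrays and 66 were controls, which left 9977; 9952 of them passed a filter on dim signals and were tested. The other adult arrays, 3 of 3-month and 3 of 1-year female ventricle, served to test whether the change with age differed between the groups.

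The ventricle owes most of its mass to cardiomyocytes, which share it with endothelial cells, fibroblasts, pericytes and macrophages. Ventricular myocytes carry the light chains Myl2 and Myl3, whereas atrial myocytes carry Myl7 and Myl4 and secrete atrial natriuretic peptide, the product of Nppa. The atria join the ventricles at the base of the heart, and Nppa is also made again by ventricular myocytes under load. Ageing of the rodent heart is known for myocyte enlargement, interstitial fibrosis and a decline of mitochondrial function.

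Values are signals of the deposited table, each gene on its own probe set. A signal of 124.6 served as background, the 95th percentile over 19 control probe sets for non-mouse sequences, whose highest signal was 193.6. Differences are on the log2 scale, 1-year m minus 5-month males, with a standard error (SE) from limma, and a probe set was called at a Benjamini-Hochberg adjusted p under 0.05 over all 9952. The median signal of an array lay between 197.7 and 209.7 at 5 months and between 198.8 and 213.2 in the m group. The ratio of 3' to 5' actin probe sets, a sign of RNA quality, was 1.297 to 1.549 and 1.468 to 1.57. The signal for 18S ribosomal RNA differed more, with 290, 371 and 1043 at 5 months against 456, 171 and 100.2 at 1 year. Replicate 3 of the 5-month group stood apart through the brightest muscle genes: Tnni3, cardiac troponin I, read 27304, 35547 and 63256. Such genes were among the brightest of every adult array, which bears out heart muscle but not the cut between ventricle and atrium. Of 6 sex-linked genes measured, 5 had a negative difference, with a median of -0.35 and 1 lower at an unadjusted p under 0.05. That gene was Kdm6a, an X-linked histone demethylase, at 501, 394 and 484 against 471, 263 and 215 (-0.61; adjusted p = 0.517). Eif2s3y, a Y-linked translation factor subunit, read 448, 387 and 271 at 5 months and 346, 429 and 364 in the m group, against at most 103.0 on the 6 female arrays. Xist, which silences the inactive X, stayed at or under 88.6 on the 6 arrays compared and at or above 580 on the female ones.

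A single probe set was called. Pold1, the catalytic subunit of DNA polymerase delta, encoded on chromosome 7, read 247, 460 and 312 on the 5-month arrays and 71.3, 123 and 105.0 on the m arrays. Every m array lay below every 5-month array, and every m array lay below background. The means were 340 ± 109 (SD, n = 3) and 99.7 ± 26.2 (SD, n = 3), and Pold1 fell by 1.76 on the log2 scale (SE 0.25; adjusted p = 0.00435). With every signal under background set to background, Pold1 was at least 2.64-fold lower (adjusted p = 0.0202). That 1 probe set was 0.0100% of those tested, and 897 (9.01%) had an unadjusted p under 0.05. The latter count was not stable. It was 502 without m replicate 2, 553 with the 18S signal as a covariate and 1310 without m replicate 1. The female arrays of 3 months read 456, 466 and 489 for Pold1, and those of 1 year 480, 266 and 409. The test of the difference between the m and the female changes missed the threshold for this gene (-1.43; adjusted p = 0.052). Pold1 was no longer called in fits to the 6 arrays alone (adjusted p = 0.670) or the 12 adult arrays (0.366), or without 5-month replicate 2 (-1.51; 0.0536). Its difference ranged from -1.96 to -1.40 over the alternatives.

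Several genes with small p-values, picked from the order of p after their values were seen, missed the threshold with groups that did not overlap. Kansl2, a subunit of a histone acetyltransferase complex, read 1206, 1197 and 1600 at 5 months and 893, 647 and 656 at 1 year (-0.87, SE 0.16; adjusted p = 0.0974). Arfrp1, a small GTPase of the Golgi, read 796 to 833 at 5 months and 431 to 510 at 1 year (-0.77, SE 0.16; 0.164). All the m arrays were the lower ones for both genes. Ptpn9, a tyrosine phosphatase, went the other way with 409, 434 and 362 against 713, 784 and 601 (0.80, SE 0.18; 0.215). Fn1, fibronectin, which cells assemble into a fibrillar matrix, read 389, 401 and 328 against 592, 756 and 490 (0.70, SE 0.17; 0.251). Ighm, the heavy chain of immunoglobulin M, read 250, 211 and 287 against 360, 586 and 593 (1.02, SE 0.25; 0.251). The m arrays were the higher ones for Ptpn9, Fn1 and Ighm. In the test of the difference between the m and the female changes, Kansl2, Arfrp1 and Ptpn9 were called. Their differences were -1.44, -1.1 and 1.02 (adjusted p = 0.00331, 0.0178 and 0.0443). They were called under 25, 23 and 15 of 27 alternatives. Fn1 and Ighm were not called in that test (adjusted p = 0.972 and 0.0972). Fn1 was higher at 1 year in females as well, at 413, 280 and 441 against 604, 591 and 573 (0.67; limma adjusted p = 0.0909, uncalled). Ighm differed by -0.21 in females. For Ighm the other probe sets were dim, and the mean over its probe sets differed by 0.13. Ndufb3, a subunit of respiratory complex I, read 8710, 8421 and 10883 against 6204, 6375 and 4322 (-0.74, SE 0.20; 0.291), again without overlap. Mef2c, a transcription factor of muscle genes, read 653, 391 and 539 against 730.5, 1126 and 953 (0.84, SE 0.23; 0.314). Its other probe sets gave 0.36, 0.17 and 0.01, and the mean over all of them 0.34 (0.713).

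**Figure D1:**
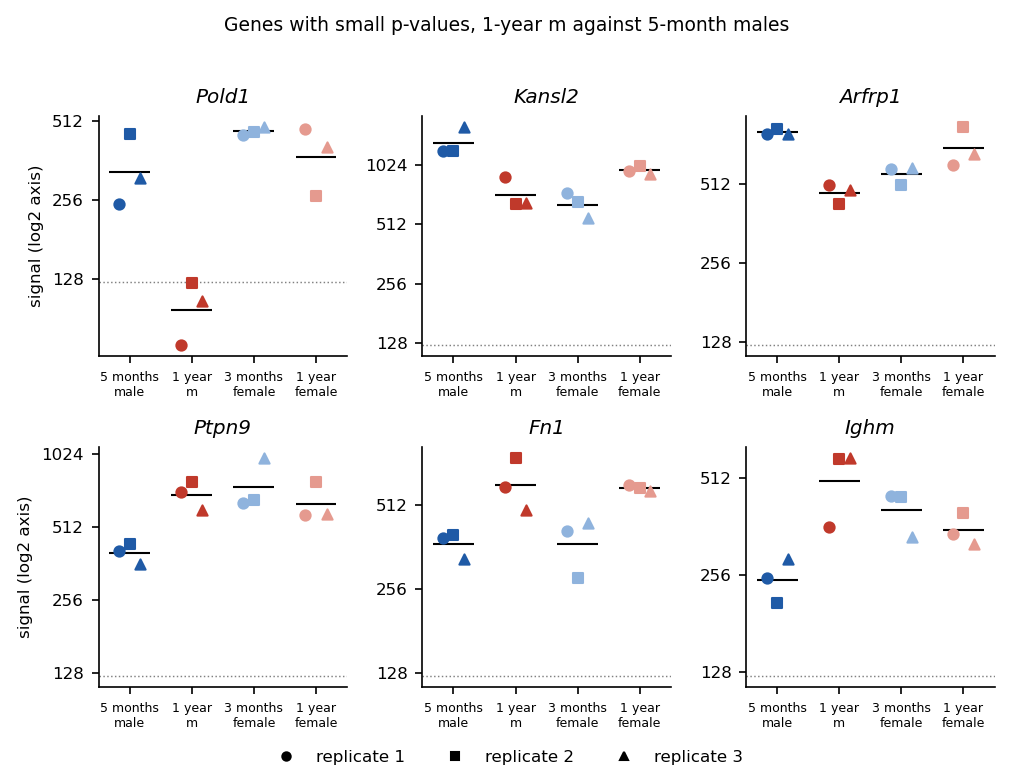
Signal on a log2 axis for Pold1, Kansl2, Arfrp1, Ptpn9, Fn1 and Ighm on the 12 adult arrays; each point is 1 array, its shape the replicate, the bar the group mean on that axis and the dotted line the background of 124.6. The m arrays of Pold1, at 71.3 to 123, lie under all 9 other adult arrays, and in each panel the m and the 5-month arrays do not overlap.

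Over the 7406 genes tested, each by its probe set of highest mean signal, 344 (4.64%) had an unadjusted p under 0.05 and were higher in the m group and 337 (4.55%) were lower. All 3 m arrays lay above all 3 5-month arrays for 490 genes (6.62%) and below them for 443 (5.98%). The median difference of all genes was 0.01. The gene lists below are read against these shares, and no member of any of the 39 lists, which held 769 measured genes, was called.

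Atrial markers were higher in value in the m group than at 5 months, and the m arrays differed widely in them. Of 16 genes listed, 15 were measured: 6 had an unadjusted p under 0.05 and were higher (40.0%), 0 were lower, and 6 had all m arrays above all 5-month arrays. The list's median was 0.62, and 3 members lay below background in both groups. The medians of the single m arrays against the 5-month mean were 0.45, 1.11 and 0.28, so that replicate 2 stood highest. The summed signal of the 15 genes was 3494, 3478 and 3512 at 5 months and 5449, 14056 and 4326 in the m group. No sum of the m group came down to those of the 5-month group. Nor did any female sum, at 5367 to 8594 at 3 months and 4432 to 5522 at 1 year. The 5-month group was thus the lowest of the adult groups. The median was 0.45 without m replicate 2 and 0.60 after quantile normalization. In bulk tissue fewer cells of a type and less RNA per cell cannot be told apart, and the sources do not say how ventricle was cut from atrium.

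For Myl7 and Nppa, both highest on m replicate 2, the 250 bases before the annotated starts are shown (RefSeq, GRCm38.p6, gene strand, 5′ to 3′). Nppa starts from chr4:148000472-148000721 on the plus strand and Myl7 from chr11:5898783-5899032 on the minus strand. Capitals mark matches on either strand. The letters searched were TCACACCT for T-box factors, TNAAGTG for factors of the Nkx2-5 type, TGATAA for zinc fingers of the GATA type and TATAAA for the core promoter, beside the CArG box bound by serum response factor.
Nppa: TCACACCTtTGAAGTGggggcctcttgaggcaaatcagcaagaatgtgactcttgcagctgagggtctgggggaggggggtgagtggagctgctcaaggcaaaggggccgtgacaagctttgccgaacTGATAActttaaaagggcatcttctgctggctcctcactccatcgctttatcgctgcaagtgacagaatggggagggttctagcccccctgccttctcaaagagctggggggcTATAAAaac
Myl7: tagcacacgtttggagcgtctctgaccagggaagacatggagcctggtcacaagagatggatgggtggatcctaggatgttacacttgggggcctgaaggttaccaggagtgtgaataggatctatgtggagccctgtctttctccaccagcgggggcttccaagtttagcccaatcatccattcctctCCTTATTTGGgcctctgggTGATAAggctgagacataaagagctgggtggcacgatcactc
Nppa held the T-box match at 250 to 243 bases before the start, beside an Nkx2-5 type match, a GATA type match and a core promoter match. Myl7 held a GATA type match at 42 to 37 and a CArG box at 61 to 52 bases before the start. The matches did not overlap. Of 32851 starts searched the same way, 1.12% held the T-box match, 10.1% the Nkx2-5 type, 7.94% the GATA type, 12.4% the core promoter letters and 1.47% the CArG box. A match describes letters only and shows no binding.

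Myl7, the atrial regulatory light chain, read 125, 43.7 and 38.1 at 5 months and 929, 5081 and 103 at 1 year. Replicate 2 of the m group was far above the others, and replicate 3 fell inside the 5-month range. The difference was 3.73 (SE 0.92; adjusted p = 0.251), with a single 5-month array barely over background. With every signal under background set to background it was 2.75 (0.322), so that the values here are uncertain on the 5-month side. Myl7 was called only without m replicate 3 (5.20; 0.00586), and without m replicate 2 it was 2.39 (0.871). Nppa read 736, 1330 and 1029 against 1374, 4421 and 1682, with no overlap and replicate 2 again highest (1.11, SE 0.28; 0.251). Without m replicate 1 it was called (1.44; 0.0133). Myl4, the atrial essential light chain, read 200.0, 82.9 and 302 against 501, 1165 and 419 (1.87, SE 0.52; 0.316). All its m arrays were above the 5-month ones.

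The other atrial genes were less uniform. Dkk3, a secreted protein of the Dickkopf family, read 161, 172 and 88.8 against 248, 484 and 140.0 (0.93, SE 0.42; adjusted p = 0.528), and m replicate 3 overlapped the younger group. Gja5, connexin 40 of atrium and conduction system, read 241, 115 and 169 against 237, 451 and 221 (0.78; 0.480), with overlap. Pam, which amidates peptide hormones, read 209, 224 and 145 against 346, 311 and 230.0, all m arrays higher (0.62). Kcnj3, a subunit of the acetylcholine-gated potassium channel, read 98.0, 28.1 and 111 against 191, 116 and 119 without overlap (1.04; 0.599). Kcnj3 was below background on all of these arrays but m replicate 1, and its difference ranged from 0.21 to 1.39 over the alternatives. Its partner subunit Kcnj5 had the opposite sign, with 94.9, 167 and 24.3 against 37.3, 16.9 and 34.1 (-1.39), most arrays below background. Sln, sarcolipin of the atrial calcium pump, read 52.5, 148 and 120.0 against 31.0, 248 and 149, and its sign depended on single arrays. Nr2f2, a nuclear receptor of atrial identity, read 263, 257 and 271 against 284, 293 and 287, without overlap but by little (0.13, SE 0.30; 0.949), while its relative Nr2f1 stayed below background, 10.5, 11.8 and 10.4 against 27.9, 55.3 and 35.2. Angpt1, an endothelial growth factor, read 112, 133 and 160 against 120, 89.1 and 93.3, with overlap. Stard10, Clec3b and Bmp10 differed by 0.28, 0.04 and -0.11, each under its SE.

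**Figure D2:**
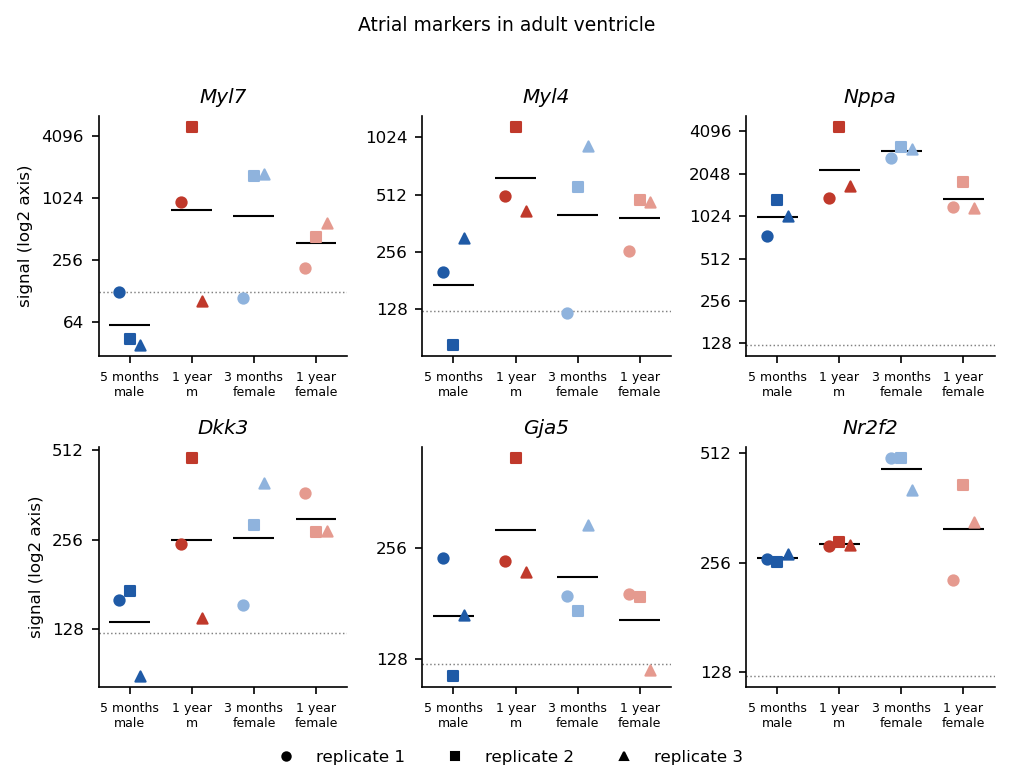
Signal on a log2 axis for atrial marker genes on the 12 adult arrays; each point is 1 array, its shape the replicate, the bar the group mean on that axis and the dotted line the background of 124.6. In the m group replicate 2 is the highest for Myl7 (5081), Nppa (4421) and Myl4 (1165), and m replicate 3, at 103, is inside the 5-month range for Myl7.

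The female arrays also spread in Myl7, and less in Nppa. Myl7 read 111, 1689 and 1748 at 3 months and 212, 431 and 590 at 1 year, so that the lowest and highest of the 3-month arrays were further apart than the group means. Nppa read 2670, 3148 and 3049 against 1195, 1798 and 1180, without overlap and with the older arrays lower. The genes whose log2 signal followed Myl7 most closely over the 12 adult arrays were Prkcd, a kinase of the protein kinase C family (r = 0.872), Dkk3 (0.860), Sspo (0.856), Hspa1l (0.854), Adh7 (0.854), Tfap2b (0.846), Pttg1 (0.842) and Nodal (0.842). The points share arrays and groups, and r is given as a description. Prkcd read 395, 401 and 453 at 5 months and 596, 645 and 399 in the m group. Pttg1, securin of the cell cycle, read 285, 247 and 241 against 626, 819 and 165. In both, m replicate 3 lay with or below the younger arrays, as for Myl7. Tfap2b and Nodal stayed under background on the arrays compared.

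The m arrays differed more among themselves than the 5-month arrays did. Over the 6195 probe sets with a group mean above background, the highest and lowest m arrays lay a median of 0.554 apart on the log2 scale, against 0.445 over 6096 probe sets at 5 months. A range above 1 was seen for 1207 probe sets in the m group (19.5%), for 844 at 5 months (13.8%), for 21.0% at 3 months in females and for 15.1% at 1 year in females. By the median range the m group was the widest of the 4 adult groups (0.542 at 3 months and 0.462 at 1 year in females), and by that share it lay below the 3-month females. Over all 9952 tested probe sets its median range, 0.703, was also below the 0.739 of the 3-month females. These values are a description and were not tested. Of the 3 m arrays, replicate 1 lay nearest to the 5-month mean for 3031 probe sets, replicate 2 for 1418 and replicate 3 for 2057. Replicate 2 was more than 2-fold above that mean for 485 probe sets and below it for 453, against 224 and 209 for replicate 1 and 248 and 301 for replicate 3.

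After Myl7 (range 5.62), the widest ranges within the m group belonged to 11 genes, and m replicate 1 was the highest m array in 9 of them. Mitf, a transcription factor of pigment cells that the heart also expresses, read 654, 567 and 611 at 5 months and 638, 151 and 8.0 at 1 year. Xrn1, the main cytoplasmic 5′ to 3′ exoribonuclease, read 302, 255 and 308 against 367, 14.8 and 15.3. Akap9, an anchor of protein kinase A, read 422, 30.5 and 62.8 in the m group, and Hus1, part of a DNA damage clamp, 358, 42.7 and 28.5. In each of the 4 genes replicates 2 and 3 were both far below replicate 1 on the probe set given. The other probe sets of Hus1 were highest on replicate 3, at 112, 64.6 and 118 and at a dim 32.6, 20.6 and 43.9. Per2, a clock repressor whose level cycles through the day, read 201, 160 and 147 against 297, 9.9 and 97.0; the sources used here give no hour of sampling. Cacna2d1, an accessory subunit of the L-type calcium channel, read 744, 53.0 and 341 in the m group, Grb10, an adaptor of insulin signalling, 313, 30.1 and 245, and Gsta3, a glutathione transferase, 309, 26.7 and 149. Mtrf1l, a mitochondrial release factor, read 237 on replicate 1 and 163 on replicate 3. For these replicate 2 was the lowest. A further probe set of Grb10, of similar signal, differed by -0.18 between the ages, against -1.61 for the one given. Stac and Itgal, the latter an integrin of leukocytes, were highest on replicate 2, at 307 and 267, and lowest on replicate 3, at 24.1 and 21.9.

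Leaving out m replicate 1 raised the calls from 1 to 94 (0.945% of those tested; 64 lower and 30 higher, 81 genes), with 1310 at an unadjusted p under 0.05. Only 1 of the 94, Pold1, was also called with all 6 arrays. Leaving out m replicate 3 gave 4 calls and leaving out 5-month replicate 1 gave 3. The choice to drop replicate 1 follows its values, so these calls describe where replicates 2 and 3 lay together and are no independent test. For 34 of the 64 lower probe sets replicate 1 was inside the 5-month range, for 23 it was below it and for 7 above it. For the 30 higher ones the counts were 15 inside, 14 above and 1 below.

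The lower genes named here were chosen after their values were seen. Ddx6, a helicase of RNA decay bodies, read 1153, 811 and 774 at 5 months and 849, 173 and 91.6 in the m group (-2.83 without replicate 1; adjusted p = 0.0214). With all 6 arrays it differed by -1.92, but its other probe sets by -0.81 and -0.03, the latter at 545, 868 and 541 against 717, 611 and 551. Ago2, the slicer of RNA interference, read 1025, 818 and 957 against 877, 298 and 208. Replicate 1 lay within the younger arrays for Ago2 and for the probe set of Ddx6 first given, and replicates 2 and 3 lay far below. Pik3r1, the regulatory subunit of PI 3-kinase, read 673, 515 and 486 against 538, 141 and 167 (-1.85; 0.0052). Ddit4, an inhibitor of mTORC1 signalling, read 845, 922 and 861 against 940, 217 and 307. Camk2d, the main cardiac calcium and calmodulin dependent kinase, read 483, 311 and 456 against 396, 146 and 107. Lpl, lipoprotein lipase, which releases fatty acids from blood lipids, read 13013, 15923 and 18628 against 16817, 8541 and 5301 (-1.22; 0.0242). Ndufc1, of complex I, read 14899, 14582 and 13970 against 14330, 7190 and 5856. In all of these replicate 1 sat within the 5-month range or above it, and replicates 2 and 3 below every younger array.

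Among the higher ones, chosen in the same way, Acadl, which oxidises long-chain acyl-CoA, read 3024, 3305 and 4190 against 3248, 6993 and 6726 (0.98 without replicate 1; adjusted p = 0.0265). Gstm5, a glutathione transferase, read 3248, 3507 and 3082 against 3340, 6112 and 5339 (0.80; 0.00414). Jund, a subunit of the AP-1 factor, read 6048, 5173 and 7500 against 7530, 13062 and 10195. Replicate 1 was inside the younger range for Acadl and Gstm5 and just above it for Jund. Some of these genes also set 1 female array apart: 3-month female replicate 3 was below both other 3-month arrays for 45 of the 64 lower probe sets, against 32.5% of all tested, and above both for 19 of the 30 higher ones, against 42.5%. It read 21.0 for Xrn1, 78.9 for Mitf, 162 for Ddx6 and 272 for Ago2. The 18S signal was 456 on m replicate 1 and 171 and 100.2 on replicates 2 and 3. As a covariate in the fit to all arrays it left 1 call and 553 probe sets at an unadjusted p under 0.05. Its part in the calls without m replicate 1 was not tested.

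**Figure D3:**
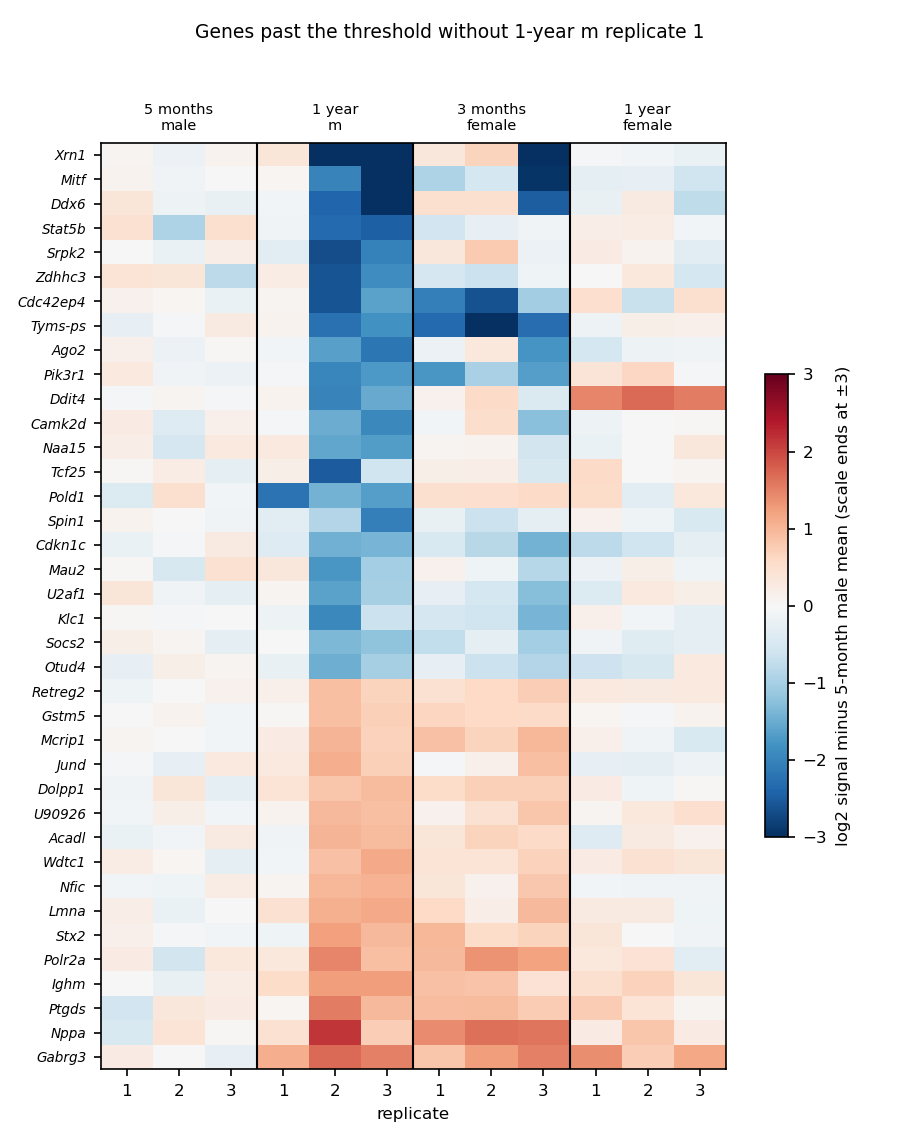
Log2 signal minus the 5-month male mean, as colour from -3 to 3, on the 12 adult arrays (columns, by group and replicate). Rows are genes called without m replicate 1. Only those with the largest differences in each direction and a group mean above background are shown. For Xrn1, Mitf, Ddx6 and Ago2 m replicate 1 has the pale colour of the 5-month arrays. On m replicates 2 and 3 and 3-month female replicate 3 these genes are blue, to differing depth.

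The contractile and calcium genes of ventricular myocytes were lower in value, and the brightest of them moved with 1 array. Of 22 ventricular genes listed, 14 were measured; 3 (Actn2, Mybpc3 and Ldb3) were listed at 0 throughout. None had an unadjusted p under 0.05 and was higher, 3 were lower (21.4%), and the median was -0.37. Tnni3 read 39162, 28039 and 24878 in the m group against the 5-month values given above (-0.39, SE 0.22; adjusted p = 0.621). Myh6, the adult cardiac heavy chain of myosin, read 26391, 30671 and 50888 against 30711, 21351 and 26714 (-0.41; 0.589). Tnnc1, troponin C, read 25013, 29116 and 58452 against 33933, 20237 and 19413 (-0.56, SE 0.25; 0.529). In all 3 the groups overlapped and 5-month replicate 3 was the highest array. Without that array the list's median was -0.14, and it was -0.12 after quantile normalization. The 12 calcium handling genes had a median of -0.25 and 1 at an unadjusted p under 0.05, lower. Atp2a2, the calcium pump of the sarcoplasmic reticulum, read 18222, 15721 and 35740 against 18435, 15306 and 16488 (-0.38; 0.641).

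Genes of the fetal and hypertrophy programme had a median of 0.21 over 22 measured, with 6 higher (27.3%) and 1 lower at an unadjusted p under 0.05. Of the 6, Nppa, Myl7 and Myl4 are also atrial markers. The others were Tnni1, the slow skeletal troponin I of fetal heart (410, 369 and 250 against 468, 443 and 570; 0.55), Mef2c and Edn1, endothelin 1 (62.3, 173 and 38.2 against 150, 266 and 210; 1.45). Tnni1 did not overlap and Edn1 did; neither was called. Myh7, the fetal and slow heavy chain, read 9172, 11616 and 9911 against 19072, 7097 and 13105 (0.25, SE 0.33; adjusted p = 0.881), so that m replicate 1 was the highest and m replicate 2 the lowest of all 6. Nppb, B-type natriuretic peptide, read 3681, 8958 and 6593 against 8968, 7854 and 9911 (0.56; 0.556). Ankrd1, a stretch-responsive titin-binding protein, read 16574, 18507 and 25236 against 21058, 21884 and 25427 (0.20; 0.771).

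Channels and signalling genes had medians near that of all genes. The 18 ion channel and conduction genes had a median of -0.05. Gja1, connexin 43 of ventricular gap junctions, read 10381, 9879 and 11256 against 11352, 10443 and 10040 (0.01, SE 0.15; adjusted p = 0.988). Of 20 adrenergic and growth factor genes, 2 were higher and 4 lower (20.0%) at an unadjusted p under 0.05, with a median of -0.01. Igf1, insulin-like growth factor, read 1011, 911 and 806 against 986, 1548 and 1256 (0.46), with overlap. Akt1, its downstream kinase, read 1244, 1214 and 1240 against 1033, 825 and 995 (-0.38), and Vegfa, the angiogenic growth factor, 1008, 1047 and 984 against 774, 516 and 645 (-0.67). Both were lower on all m arrays, and none of these was called. They were chosen after their values were seen.

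Genes of oxidative metabolism were more often lower than the background share, by small amounts. Of 56 measured genes of oxidative phosphorylation 0 were higher and 11 lower at an unadjusted p under 0.05 (19.6%), and 9 had all m arrays below all 5-month arrays. The median was only -0.12, and -0.05 without 5-month replicate 3 or after quantile normalization. The 11 were chosen after their values were seen: Ndufb3, Ndufb8, Ndufb9, Ndufc1 and Ndufv2 of complex I, Sdhb of complex II, Uqcrq and Cyc1 of complex III, Cox7a1 of complex IV and Atp5j and Atp5l of ATP synthase. Sdhb, the iron-sulphur subunit, read 13059, 13138 and 18469 against 12678, 8866 and 8544 (-0.57, SE 0.17; adjusted p = 0.332). Cox7a1 read 7516, 6711 and 9658 against 6650, 5894 and 6390 (-0.32; 0.530). Neither overlapped. Ndufv1, the brightest of the complex I genes named, read 22605, 23751 and 29001 against 22856, 25374 and 21127, with overlap (-0.12; 0.881).

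In fatty acid oxidation 1 of 27 genes was higher and 5 lower at an unadjusted p under 0.05 (18.5%), with a median of -0.16. Hadh, a dehydrogenase of short-chain hydroxyacyl-CoA, read 3815, 3192 and 3840 against 2980, 1695 and 2415 (-0.65, SE 0.22; adjusted p = 0.393). Acaa2, the mitochondrial thiolase, read 12583, 11084 and 15204 against 10335, 8732 and 9174 (-0.45; 0.420). All the m arrays were lower for both, which were chosen after their values were seen. Fabp3, the heart fatty acid binding protein, read 16426, 18389 and 33758 against 17971, 17983 and 16992 (-0.30; 0.718), with 5-month replicate 3 alone high. The tricarboxylic acid cycle had a median of -0.08 over 21 genes; Mdh2, malate dehydrogenase, differed by -0.04 and Idh2, isocitrate dehydrogenase, by -0.34. Glycolysis and glucose uptake had a median of -0.20 over 17 genes, of which 5 had all m arrays lower, among them Pkm, pyruvate kinase, with 14807, 15267 and 13602 against 13407, 12355 and 11876 (-0.21; 0.660). The glucose transporter Slc2a4 differed by -0.09.

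Proteasome genes were likewise more often lower than the background share. Of 28 proteasome and ubiquitin genes 0 were higher and 5 lower at an unadjusted p under 0.05 (17.9%), with a median of -0.14. Psmd4, a ubiquitin receptor of the proteasome cap, read 1827, 2105 and 2051 against 1656, 848 and 1268 (-0.72, SE 0.23; adjusted p = 0.376). Psmc3, a cap ATPase, read 1717, 1648 and 2173 against 1536, 1115 and 1422 (-0.45; 0.416). Both were lower on all m arrays and were chosen after their values were seen. The 25 lysosome and autophagy genes had a median of -0.02 and none with an unadjusted p under 0.05; Ctsd, cathepsin D, read 8651, 7027 and 9056 against 8291, 8221 and 9612 (0.08; 0.925). The 24 heat shock genes had a median of -0.28 with 1 lower (4.17%, near the background); Hspa8, the constitutive Hsp70, read 6252, 5557 and 8218 against 6158, 4242 and 5538 (-0.33; 0.569), with overlap. The 21 ribosomal protein genes had a median of -0.13 and 2 lower. Antioxidant and detoxification genes went the other way in count, with 5 of 26 higher (19.2%) and 1 lower and a median of 0.12. Gpx3, the secreted glutathione peroxidase, read 5171, 5449 and 5312 against 5727, 8607 and 6448 (0.36; 0.549), and Gstm1 6767, 6795 and 7540 against 7806, 11326 and 8453 (0.37; 0.549). Both were higher on all m arrays. Sod2, the mitochondrial superoxide dismutase, was the lower one (-0.39; 0.529).

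Collagens and other matrix genes had a median close to that of all genes. The 42 matrix genes had a median of -0.02, with 3 higher and 3 lower at an unadjusted p under 0.05. Col1a1, the main fibrillar collagen chain, read 1087, 1066 and 1069 against 1176, 1015 and 828 (-0.11, SE 0.15; adjusted p = 0.884). Dcn, decorin of the collagen fibril surface, read 12695, 11719 and 14281 against 14397, 11749 and 11363 (-0.05; 0.964). The 3 higher were Fn1, Bgn and Col6a1; Bgn, biglycan, read 2653, 3033 and 2837 against 3181, 4274 and 4613 without overlap (0.49; 0.352). Lama2, the laminin chain of the muscle basement membrane, was among the lower, with 890, 1010 and 1093 against 875, 684 and 712 (-0.40; 0.438). The fibroblast list had a median of -0.07 and the 22 endothelial genes one of -0.11. Nos3, endothelial nitric oxide synthase, read 238, 383 and 389 against 110, 101 and 216 (-1.29), all m arrays lower and uncalled. Eng, endoglin, read 3687, 4513 and 4084 against 4299, 5620 and 7696 (0.48; 0.440), with overlap.

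The lymphocyte list was higher in value mainly on m replicate 2. The 20 genes of T and B lymphocytes had a median of 0.38, 3 higher and 1 lower at an unadjusted p under 0.05, and per-array medians of 0.24, 0.77 and 0.04. Without m replicate 2 the median was 0.09, and 9 of the 20 were below background in both groups, Cd3e among them. Antigen presentation had a median of 0.21 over 20 genes, with 6 whose m arrays were all above. H2-K1, a class I molecule, read 4442, 4335 and 4430 against 5796, 5704 and 5744 (0.38, SE 0.20; adjusted p = 0.592). Cd74, the invariant chain of class II, read 1790, 1658 and 1869 against 2076, 2098 and 2253 (0.27; 0.793). H2-K1 and Cd74 did not overlap and were uncalled. H2-K1 was uncalled under all 22 alternatives as well. The 24 macrophage genes had a median of 0.08, with none at an unadjusted p under 0.05. Among the m arrays, red cell genes were also highest in value on replicate 2. The 16 erythroid genes had a median of 0.36 and per-array medians of 0.00, 0.54 and 0.15. Their differences were positive for 12, 1 of them with an unadjusted p under 0.05. Without m replicate 2 the median was 0.11. Hbb-b2, beta globin, read 8086, 8786 and 10034 against 9300, 16553 and 9672 (0.35; 0.851), whereas Hba-a1, alpha globin, read 18062, 25231 and 38627 against 23026, 23921 and 19403 (-0.24; 0.889). The groups overlapped in both. The skeletal muscle and adipocyte lists had medians of 0.17 and 0.00.

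**Figure D4:**
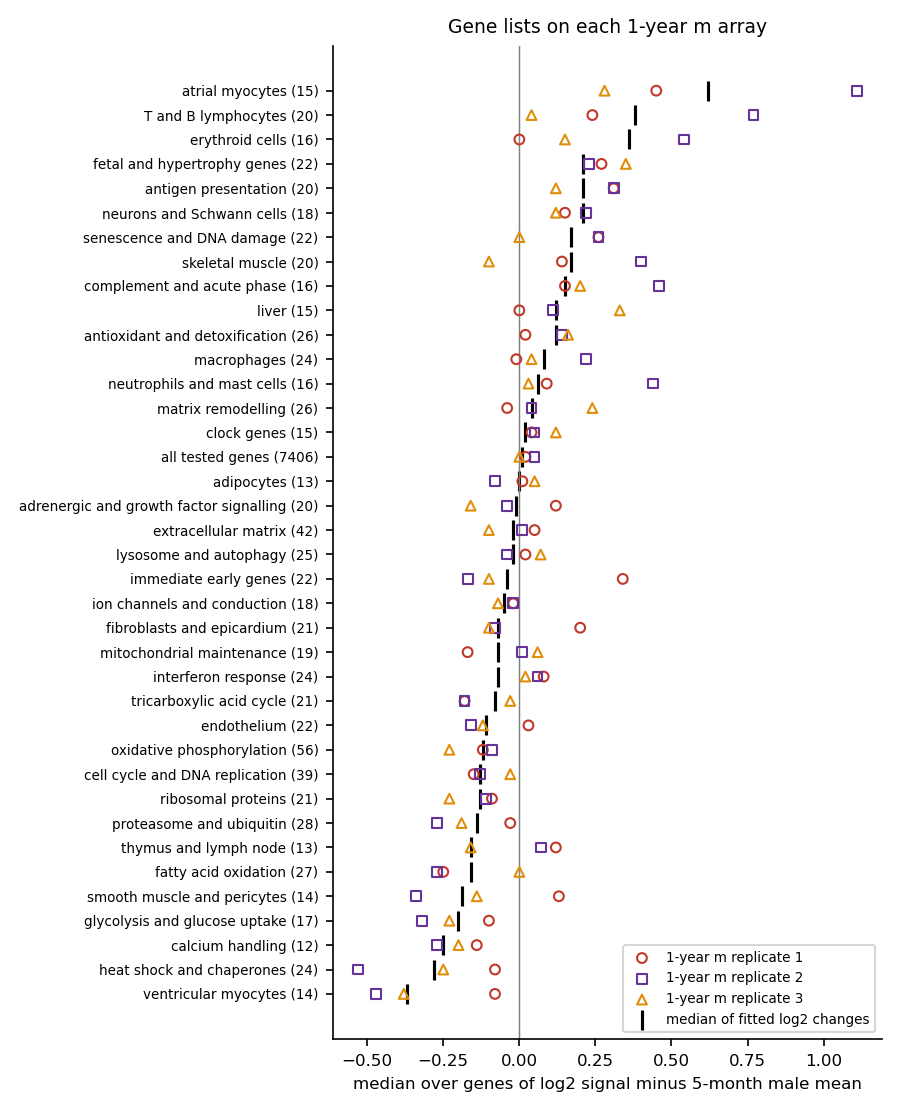
Median over the measured genes of each list of log2 signal on 1 m array minus the 5-month mean; each row is a list, each open symbol 1 of the 3 m arrays and each black bar the median fitted difference, which orders the lists. Atrial myocytes reach 1.11 on replicate 2 against 0.45 and 0.28 on the others, and T and B lymphocytes reach 0.77 on replicate 2.

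The change with age in the m-titled groups was then set against that in females, 1 year minus 3 months. The younger groups differ in age as well as in sex, so these cannot be told apart. The difference of the changes was called for 108 probe sets (1.09% of 9952; 48 with a more positive change in the m groups and 60 with a more negative one), with 1268 at an unadjusted p under 0.05. None of the 108 was called in the m change itself, and 27 were called in the female change. The signs of both changes were opposite for 104. Picking probe sets by the difference of changes favours opposite signs, so that this count is no separate evidence. The share of opposite signs over all tested probe sets was not counted. The count ran from 19 to 347 when 1 of the 12 arrays was left out, was 1 in a fit to the 12 adult arrays and 0 with the 18S signal as a covariate.

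Natriuretic peptides were among the genes called. For Nppa the difference of changes was 2.23 (adjusted p = 0.00766) and for Nppb 1.96 (0.0169). Nppb read 23605, 22371 and 16437 at 3 months in females and 8106, 8762 and 6618 at 1 year, so that the youngest group was the highest of the 4 adult groups. The atrial sums were 5367 to 8594 at 3 months and 4432 to 5522 at 1 year in females; their part in the result was not tested. Foxm1, a transcription factor of dividing cells, read 543, 355 and 390 at 5 months and 621, 687 and 655 in the m group, 828, 658 and 857 at 3 months and 328, 127 and 256 at 1 year in females (2.45; 0.00179). Its other probe set was below background, and the mean over both gave 1.41 (0.273). Chrne, the adult subunit of the muscle acetylcholine receptor, read 160, 174 and 110 against 327, 1118 and 414 (difference of changes 2.95; 0.0443). Icam5, an adhesion molecule of neurons, read 110, 30.4 and 128 against 153, 194 and 162 (3.49; 0.0443). For both every m array was above every 5-month array; each was called under only 12 of the alternatives run. Chrne has dimmer probe sets as well, and the mean over all of them gave 1.37 (0.374).

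Some genes were called with negative differences of changes. Nos3, the 1 called of 22 endothelial genes, read 68.1, 186 and 97.8 at 3 months and 124, 343 and 412 at 1 year in females, whereas the older arrays were the lower ones in the m-titled groups (-2.56; adjusted p = 0.0334). It was called under 16 of 27 alternatives. Lpl differed by -1.89 (16 of 27) and Pik3r1 by -3.03 (25 of 27). In oxidative phosphorylation 5 of 56 genes were called (Ndufb8, Sdhb, Uqcrq, Atp5l and Atp5o), with differences from -1.12 to -1.01; each was called under 9 to 15 of the 27 alternatives. Red cell genes were called too, Hba-a1 at -3.24 and Hbb-b2 at -3.27. Hba-a1 read 4030, 5101 and 1230 at 3 months, far below the 18062 to 38627 of the other adult groups, so that the value turns on the 3-month arrays.

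**Figure D5:**
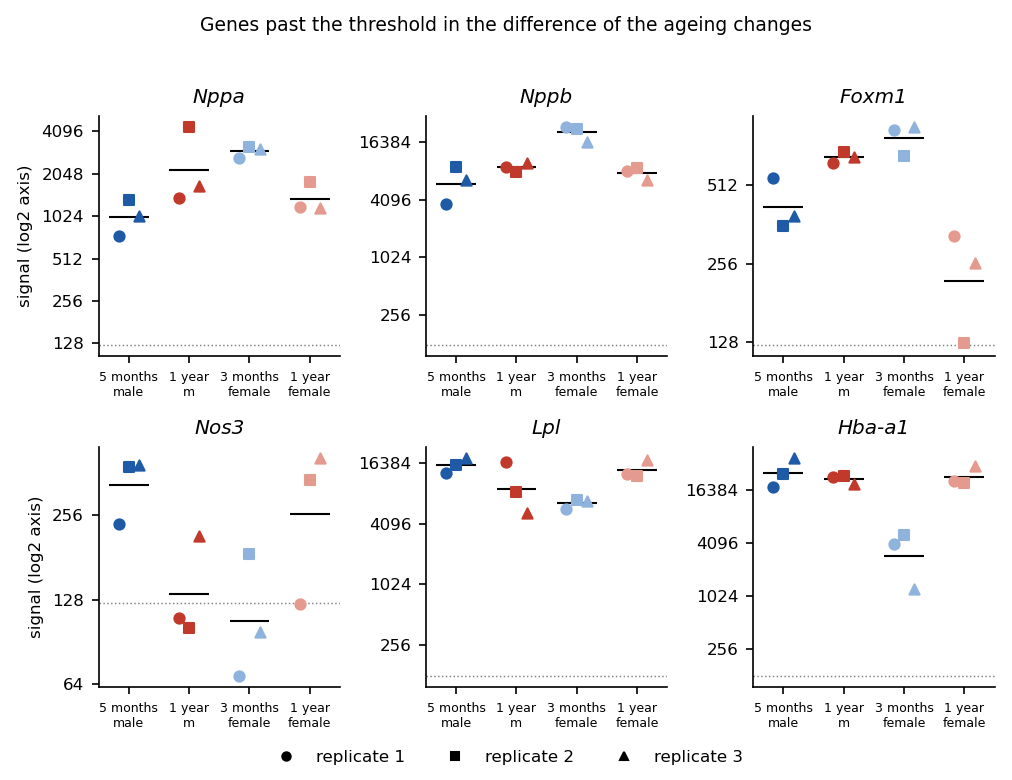
Signal on a log2 axis for Nppa, Nppb, Foxm1, Nos3, Lpl and Hba-a1 on the 12 adult arrays; each point is 1 array, its shape the replicate, the bar the group mean on that axis and the dotted line the background of 124.6. For Hba-a1 the 3-month female arrays, at 1230 to 5101, lie under all 9 others, and for Nppb the 3-month female arrays are the highest.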

How the data were processed

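The deposited table held 1 signal intensity per probe set and array, in linear units; the values the authors deposited have, on every array, a mean of 500.44 to 500.6 without the extreme 2% at each end, and no source states how they were scaled. Software, settings and detection calls: not given in the sources used here. Signals under a floor of 14.2 (the table's 25th percentile) were raised to it, log2 was taken, and probe sets above the floor on at least 3 of 24 arrays were tested. limma 3.58.1 in R 4.3.3 fitted 1 mean for each of 8 groups (16 residual degrees of freedom) with an intensity trend, and p-values were adjusted by Benjamini and Hochberg; adjusted p-values in the text come from this fit unless a setting is named. The fit was tested on simulated data. Of the 9977 probe sets, 8724 had 1 gene symbol in the platform annotation, 346 several and 907 none; genes are named from single symbols, 8710 of which matched RefSeq (GRCm38.p6). A gene with several probe sets was read from that of highest mean signal. Named were called genes whose groups did not overlap; all atrial markers and, where a list is described, some of its 3 brightest members; the 12 widest ranges within the m group; the 8 genes most correlated with Myl7; and the 5 largest called differences of changes among genes whose m and 5-month arrays did not overlap and whose higher mean was above background. Other names were chosen after their values were seen. Members and lists were chosen with earlier results of these data known. Alternatives varied the floor, filter, normalization, arrays fitted, variance model, quality covariates and single arrays left out. The number of arrays limits the precision.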

Additional observations from a re-analysis of the deposited data

Results flagged for a closer look

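The difference between the change with age in the m-titled groups and that in females was past the threshold by the test of the difference itself for 108 probe sets. Among genes named by rule or held by a list, the more positive change in the m-titled groups was seen for Icam5 (3.49), Chrne (2.95), Foxm1 (2.45), Nppa (2.23), Nppb (1.96), Scd1 (1.76), Acta1 (1.47), Mef2c (1.37), Jund (1.26), Gstm5 (1.11) and Igf1 (1.04), all log2 differences of changes. As means over the probe sets of a gene, Chrne gave 1.37 (adjusted p = 0.374), Foxm1 1.41 (0.273) and Mef2c 0.57 (0.515). Scd1 makes monounsaturated fatty acids, and Acta1 is skeletal actin, which the fetal heart also uses.

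The more negative change was seen for the blood genes Hbb-b2 (-3.27), Alas2 (-3.27) and Hba-a1 (-3.24), for Pik3r1 (-3.03), Nos3 (-2.56), Lpl (-1.89), the potassium channel Kcna5 (-1.80), the proteasome subunit Psmd13 (-1.33) and Akt1 (-0.97). In mitochondria it was seen for Uqcrq (-1.12), Ndufb8 (-1.08), Atp5l (-1.08), Sdhb (-1.02), Atp5o (-1.01) and Idh2 (-0.92). The younger arrays were of 5 months in males and 3 months in females.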

How the results depend on the processing

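The count of 1 probe set past the threshold (0 higher, 1 lower) was 4 (1 higher, 3 lower) with floor and filter at background, 0 in fits to the 6 arrays compared (709 at an unadjusted p under 0.05 by limma) and to the 12 adult arrays (779), and 2, both lower, with array weights. Leaving out 1 array gave 1 to 94 calls, 0 to 30 higher and 0 to 64 lower. The difference of changes, 108 calls, gave 1 over the 12 adult arrays, 27 without the intensity trend, 0 with the 18S covariate (791 unadjusted) and 19 to 347 without 1 array; with arrays centred on the median it was 83, split 47 positive to 36 negative. The spread within the m group kept within 1.5 times its value under every setting run.

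Signs turned for these genes. Without 1 array in turn, Sln ran from -0.52 (without m replicate 2) to 0.98, Bmp10 from -1.08 to 0.57 (without 5-month replicate 1), Stard10 from -0.05 (without 5-month replicate 2) to 0.52 and Clec3b from -0.07 (without m replicate 2) to 0.20. Bmp10 was 0.03 with the actin covariate; Clec3b was -0.02 with it and -0.03 with array weights. Hspd1 was 0.17 with the 18S covariate. Atp5l was 0.15, and its difference of changes 0.07, as a mean over probe sets. Hba-a1 was 0.13 after quantile normalization and ran from -0.50 to 0.05 (without 5-month replicate 3) without 1 array. The cause was not tested. Over 104 gene results, 2116 alternative values kept sign and side of the threshold, 280 lost the call, 20 gained it and 18 turned sign.

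No paired analysis was possible because the animal numbers of the older and the younger arrays differ and nothing ties one to another. With 3 arrays a group, an exact permutation test of 1 gene cannot go below p = 0.10. Of the tested values 37.9% were below background, where order and fold are weak.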

Other observations

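Clock genes had a median difference of 0.02 over 15 measured genes. Nr1d1, a repressor of the clock, read 927, 857 and 1114 at 5 months and 685, 1595 and 1390 in the m group, so that m replicate 1 was the lowest and m replicates 2 and 3 the highest of the 6 arrays. Per2 was the reverse among the m arrays, with 297 on replicate 1 and 9.9 and 97.0 on the others. Genes of cell cycle and DNA replication had a median of -0.13 over 39 genes, with 2 higher and 3 lower at an unadjusted p under 0.05. Pcna, the sliding clamp that holds DNA polymerase delta on its template, read 562, 477 and 589 against 639, 544.4 and 517 (0.06, SE 0.21; adjusted p = 0.971).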
